A study of Mus musculus with 4 samples.

Results

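The 6 genes described here are Bex1, Bex2, Bex3, Bex4, Tceal8 and Tceal9, members of the brain-expressed X-linked (BEX) and TCEAL families. They are 6 of 51826 gene rows of the count table, and 6 of the 12 annotated BEX and TCEAL genes it holds. Their rows were found by Ensembl gene identifier in the GENCODE M21 annotation of mouse build GRCm38. The choice used measured values: Bex1 and Bex4 were among the genes of smallest p that were higher in the heterozygous libraries, and the others were added as relatives with their values known. Levels and differences of the 6 genes between genotypes are therefore given as a description, with no test.

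The libraries were made from total RNA of mouse mammary tumours named C3-T+ in the labels, 2 with both copies of Elf5 intact (Elf5+/+, called WT) and 2 with 1 copy (Elf5+/-, called HET). All 4 tumours were C3-T+. The sources used here do not give age, strain or sex. After enzymatic digestion, the cells went through a sort with antibodies to CD45 (leukocytes), CD31 (endothelium) and TER119 (erythroid cells), meant to enrich tumour cells. Elf5, an ETS-family factor, directs the alveolar fate of luminal progenitors in the mammary gland, and the design asks which transcripts differ when a copy of it is lost. The titles of HET 1 and HET 2 carry the same number, 3211, with tumour numbers 1 and 2, and those of WT 1 and WT 2 carry 3210 and 4972. The HET libraries may thus be a pair of tumours of a single animal, so the spread between them may be smaller than that between animals. No label says that any samples are separate animals, and p-values here reflect no more than the spread of these 4 libraries, which may be technical.

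BEX and TCEAL genes encode small, acidic, largely disordered proteins and lie together on the X chromosome of placental mammals, near the ARMCX and GPRASP genes. Several BEX proteins bind signalling adaptors: BEX1 and BEX3 (also called NADE or NGFRAP1) bind the intracellular part of p75NTR, the neurotrophin receptor with a death domain, and BEX3 was named for its part in cell death through it. BEX2 was found in complexes with the transcription factor LMO2. TCEAL proteins resemble the elongation factor TFIIS, which helps stalled RNA polymerase II to resume, and TCEAL9 is also known as WBP5, a protein found through its binding to WW domains. Most members are abundant in brain. Copies in this cluster are known to have exchanged sequence, and many of its genes share an element at the start of transcription that joins a TGACG motif to an E-box.

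That element is shown first, since it is what the 6 genes share in sequence. It was searched on both strands in RefSeq promoter windows (build GRCm38.p6) of 250 bases before and 50 bases after each start site, as TGACG, then 7 or 9 bases of any kind, then CACGTG. Capitals mark both motifs. The Bex2 element lies past its window and was read from the GENCODE M21 transcript (GRCm38).
Bex1 (chrX:136215507-136215534, minus strand): ggcttcTGACGcaagtggCACGTGacta
Bex4 (chrX:136138969-136138996, plus strand): ggcttcTGACGcaagtggCACGTGacta
Bex2 (chrX:136068163-136068192, minus strand): tggcagTGACGcagggccctCACGTGaccc
Bex3 (chrX:136270260-136270289, plus strand): tggcagTGACGcagggccctCACGTGaccc
Tceal8 (chrX:136172225-136172252, minus strand): cattgaTGACGcgatcctCACGTGacca
Tceal9 (chrX:136245070-136245097, plus strand): cactggTGACGtagatctCATGTGacca

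Bex1 and Bex4 held the same 28 bases, with TGACG starting 15 and 21 bases before the RefSeq start sites. Bex2 and Bex3 held the same 30 bases, with the wider gap, at positions 51 and 14 of their transcripts. In Tceal8 TGACG began at position 6. In Tceal9 it began 4 bases before the start site, and the E-box differed by C15T, counted from the T of TGACG, the searched motif first. With a gap of 7, the element was found in 19 of 32851 promoter windows (0.0578%), and in 6 of the 12 BEX and TCEAL genes: Bex1, Bex4, Tceal3, Tceal5, Tceal6 and Tceal8. With a gap of 9 it was found in 6 windows, among them those of Bex3 and Tceal1. At most 1 mismatch in either form was met in 218 windows (0.664%) and 10 of the 12 family genes. CACGTG alone, which any copy of the element contains, was in 7.15% of windows, and TGACG alone in 20.8%. A match describes letters in a window and does not show that a factor binds there.

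The start regions of the 4 BEX genes also formed pairs of near-copies. The windows of Bex1 and Bex4 aligned over 290 bases, of which 287 were identical, with an unbroken identical run of 271. Those of Bex2 and Bex3 aligned over 199 bases with 197 identical and a run of 162. No other pair of family windows had an identical run above 18 bases. The 250 bases before each start are printed because the near-copies can be compared with the levels below. Lower case marks bases identical to the partner in the alignment. Capitals mark the rest, that is bases that differ or were left unaligned.
Bex1 (chrX:136215514-136215763, minus strand): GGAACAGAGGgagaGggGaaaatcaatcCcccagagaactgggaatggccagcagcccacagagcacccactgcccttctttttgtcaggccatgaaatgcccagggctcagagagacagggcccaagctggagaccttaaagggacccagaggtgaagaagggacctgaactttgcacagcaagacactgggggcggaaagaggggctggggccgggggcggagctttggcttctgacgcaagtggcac
Bex4 (chrX:136138746-136138995, plus strand): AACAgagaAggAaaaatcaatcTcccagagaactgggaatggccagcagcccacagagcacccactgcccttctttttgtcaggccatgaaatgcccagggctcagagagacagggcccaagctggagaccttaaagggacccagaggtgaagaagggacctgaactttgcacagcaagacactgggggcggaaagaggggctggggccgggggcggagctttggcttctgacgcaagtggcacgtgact
Bex2 (chrX:136068237-136068486, minus strand): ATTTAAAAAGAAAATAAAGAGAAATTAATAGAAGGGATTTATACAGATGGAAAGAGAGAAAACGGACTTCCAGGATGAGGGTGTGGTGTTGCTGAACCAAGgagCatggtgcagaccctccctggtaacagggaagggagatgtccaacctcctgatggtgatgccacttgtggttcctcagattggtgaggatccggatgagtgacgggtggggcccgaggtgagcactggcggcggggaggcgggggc
Bex3 (chrX:136270003-136270252, plus strand): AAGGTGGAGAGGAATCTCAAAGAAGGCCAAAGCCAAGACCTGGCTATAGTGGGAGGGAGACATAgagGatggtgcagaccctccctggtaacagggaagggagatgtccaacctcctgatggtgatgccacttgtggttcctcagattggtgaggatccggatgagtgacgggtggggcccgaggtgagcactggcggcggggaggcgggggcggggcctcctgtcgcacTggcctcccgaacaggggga

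The identity ran on into the transcripts, which bears on how reads can be assigned. The longest shared run was 252 bases between Bex1 and Bex4 and 160 bases between Bex2 and Bex3, both ending before the coding sequence, and 108 bases between Bex1 and Bex2, inside the coding sequence. Of all stretches of 31 bases in its transcripts, 30% of those of Bex1 occurred in another gene, as did 35.5% for Bex2, 16.4% for Bex3 and 59.9% for Bex4. For Tceal8 the share was 1.97% and for Tceal9 it was 0%. Bex2 shared 163 such stretches with Bex3 and 147 with Bex1, and Bex1 shared 222 with Bex4. The counts of these genes are thus uncertain to the degree that reads were split between Bex1 and Bex4, Bex1 and Bex2, and Bex2 and Bex3. The stretches Bex4 shares lay in Bex1 and in the gene models Gm12245 and Gm4322. Bex1 also overlaps Tceal7 by 223 exonic bases on the opposite strand, and as the sources used here do not give strandedness, their reads cannot be told apart there.

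The libraries held 13152252 (WT 1), 15307939 (WT 2), 14582943 (HET 1) and 12695132 (HET 2) counts. Levels are given as CPM, that is counts divided by a library size that TMM factors adjust. A floor of 3 counts was taken as the most that a count of 0 allows, for counting error only. This floor equals 0.239, 0.214, 0.195 and 0.223 CPM in the same order. Elf5 itself was at 35.6 CPM in WT 1 and 4.70 in WT 2, against 5.39 in HET 1 and 10.6 in HET 2. The library labelled WT 2 was thus below both HET libraries and went against its label, so WT 2 below means only the library so labelled. The log2 fold change of Elf5, HET over WT, was -1.33 ± 0.92 (SE) with an edgeR quasi-likelihood adjusted p of 0.986, and without WT 1 it was 0.76. The library labelled WT 2 also stood apart in other ways: 3.48% of the genes tested had no count in it, against 0.393% to 0.454% in the others, and its summed fibroblast markers were at 23438 CPM, against 4547 to 7552. All 12 epithelial markers had counts in every library, with sums of 4288, 3840, 3138 and 2615 CPM in the order WT 1, WT 2, HET 1, HET 2.

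Bex1 was low in both WT libraries, Bex2 and Bex4 were near or under the limit of detection there, and all of them were higher in both HET libraries. Bex1 (ENSMUSG00000050071.8, chrX:136213972-136215513, minus strand) was at 1.43 CPM in WT 1 and 0.926 in WT 2, from 18 and 13 counts, and at 19.9 in HET 1 and 11.7 in HET 2, from 306 and 157 counts. The groups did not overlap: the lower HET library was 8.14-fold above the higher WT library. The fitted log2 fold change was 3.73 ± 0.56 (SE), and 73 of 21607 genes had a larger one. Over both libraries of each group the ratio of scaled counts was 13.8, with an exact 95% interval of 9.56 to 20.5 that covers counting error only. Leaving out each library in turn gave log2 fold changes of 3.26 to 4.08. In bulk RNA, a larger share of cells that express a gene and more RNA per cell cannot be told apart, here and for every gene below.

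Bex4 (ENSMUSG00000047844.3, chrX:136138996-136140443, plus strand), which in human cells is known from microtubules, had 0 counts in WT 1 and in WT 2. It had 63 counts in HET 1 and 111 in HET 2, or 4.09 and 8.24 CPM. Set against 3 counts over the WT libraries together, rather than 3 in each, the HET libraries were 53.4-fold higher. The exact 95% interval of the ratio of scaled counts, the measure given for Bex1, had a lower limit of 43.0. The fitted log2 fold change of 9.42 ± 1.26 rests on the small count the model adds to a 0 and is no bound. HET 2 was the higher library for Bex4, while HET 1 was the higher for Bex1. Gm12245, which shares transcript stretches with Bex4, had 0 counts in every library, and Gm4322 had 0, 2, 7 and 3 counts.

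Bex2 (ENSMUSG00000042750.7, chrX:136066564-136068236, minus strand) was at 0.159 CPM in WT 1 and 0.285 in WT 2, from 2 and 4 counts. In HET 1 it was at 2.27 and in HET 2 at 8.90, from 35 and 120 counts. The groups did not overlap, and the HET libraries differed from each other more for Bex2 than for Bex1 or Bex4. The log2 fold change was 4.59 ± 0.99, with 43 genes above it, and without HET 2 it was 3.22. The ratio of scaled counts was 23.8, with an exact 95% interval of 10.7 to 65.9.

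Bex3 (ENSMUSG00000046432.12, chrX:136270253-136271978, plus strand) was detected at a moderate level in every library. It was at 48.5 CPM in WT 1 and 54.3 in WT 2, against 69.5 in HET 1 and 60.4 in HET 2. Both HET libraries were above both WT libraries, but the lower HET library was only 1.11-fold above the higher WT library. The log2 fold change was 0.34 ± 0.28, little more than its standard error. Bex2 and Bex3, which share the start region printed above, thus differed in pattern. Bex1 and Bex4, which share the other, were both low or at 0 in WT, but so was Bex2, which does not share it. Reads may also be split within both pairs, as described above. The part of the start regions in these levels was not tested.

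The TCEAL genes of the group did not separate the genotypes. Tceal9 (ENSMUSG00000042712.10, chrX:136245079-136247139, plus strand) was at 198 CPM in WT 1 and 288 in WT 2, against 285 in HET 1 and 252 in HET 2. The library labelled WT 2 was the highest and WT 1 the lowest, with both HET libraries between them, and the log2 fold change was 0.14 ± 0.33. Tceal8 (ENSMUSG00000051579.10, chrX:136168984-136172342, minus strand) was at 18.5, 44.4, 29.6 and 33.6 CPM in the order WT 1, WT 2, HET 1, HET 2. Again the HET libraries lay between the WT libraries, and the log2 fold change of 0.01 ± 0.46 took either sign: it was -0.49 without WT 1, 0.78 without the library labelled WT 2, and -0.06 with relative log expression scaling. For Tceal9 the same omissions gave -0.10 and 0.44.

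**Figure D1:**
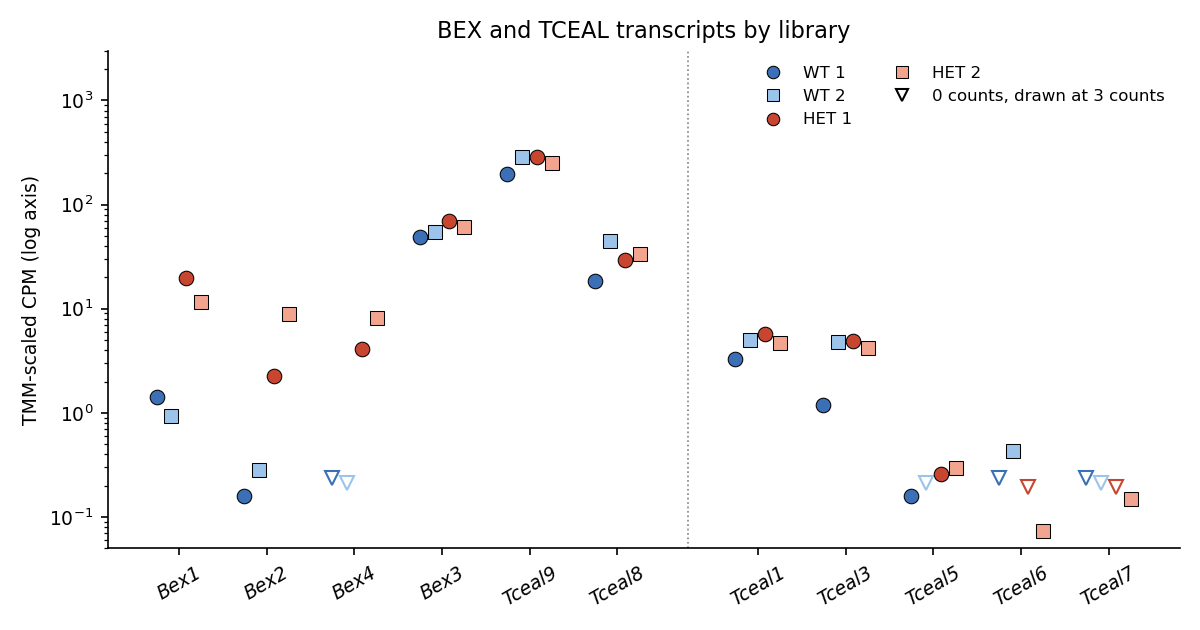
Level of each BEX and TCEAL gene on chromosome X in each library, as TMM-scaled CPM on a log axis, with the 6 described genes left of the dotted line. Circles and squares are replicates 1 and 2, and open triangles are counts of 0 drawn at the level of 3 counts. Bex1, Bex2 and Bex4 are separated by genotype, with Bex4 at 0 in both WT libraries, while Tceal8 and Tceal9 overlap.

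Divided by the length of each gene's exons, the levels can be compared between genes. In CPM per kb and the order WT 1, WT 2, HET 1, HET 2, Tceal9 was at 191, 278, 275 and 243. Bex3 followed at 49.9, 55.8, 71.4 and 62.1, and Tceal8 at 7.20, 17.3, 11.5 and 13.1. These ranges did not overlap with each other, so the order Tceal9, Bex3, Tceal8 held in every library. In the WT libraries Bex1 came next at 1.21 and 0.781 CPM per kb, then Bex2 at 0.176 and 0.316, then Bex4 at 0. In HET 1 Bex1 reached 16.7, above Tceal8, with Bex4 at 4.89 and Bex2 at 2.52. In HET 2 Bex1, Bex2 and Bex4 were nearly equal, at 9.82, 9.86 and 9.84 CPM per kb, below Tceal8. The length used is that of all annotated exons of a gene, 1186 bases for Bex1, 903 for Bex2 and 837 for Bex4. The longest coding transcript of Bex1 has only 866 bases and would give it higher levels. The near-equality and the place of Bex1 below Tceal8 in HET 2 therefore depend on the length used. With the exon lengths used, the neighbours in this order (Tceal8 and Bex1, Bex1 and Bex4, Bex4 and Bex2) did not differ beyond their spread in HET libraries.

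The make-up of the group differed between the HET libraries. The ratio of Bex1 to Bex2 counts was 8.74 in HET 1 and 1.31 in HET 2, and that of Bex1 to Bex4 counts was 4.86 and 1.41. In WT 1 and in the library labelled WT 2 the ratio of Bex1 to Bex2 was 9 and 3.25, on 2 and 4 counts of Bex2. Tceal9 supplied between 67.2% and 74.3% of the counts of the 6 genes in each library. Their summed level was 267, 388, 410 and 375 CPM in the order WT 1, WT 2, HET 1, HET 2, so it did not separate the genotypes. A sum over the group therefore follows Tceal9 and hides the difference in Bex1, Bex2 and Bex4.

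Across the 21607 genes with enough counts, 0 passed the edgeR quasi-likelihood test at an adjusted p under 0.05 (0%), and 817 (3.78%) had an unadjusted p under 0.05. Without any low-count filter 324 passed, with DESeq2 134, and without WT 1 657. All 6 genes entered the filtered edgeR test, in which no gene passed. Whether they were among the genes called by the other runs is not given, since they were chosen on this contrast. Of the 6, Bex1, Bex2, Bex3 and Bex4, 4 in all, had each HET library above each WT library, and 0 had each below. Among all genes tested the shares were 19.6% and 15.9%. Without the library labelled WT 2 all 6 were above the remaining WT library in both HET libraries. The share of all genes that did so is not given here, and the shares above, for both WT libraries, do not apply to it. The median log2 fold change was 2.04 over the 6 genes and 0.04 over all genes. Since the genes were chosen on this contrast, nothing is read from these counts.

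Genes of the X chromosome as a whole lay above those of other chromosomes in this contrast. Of 684 chromosome X genes tested, 533 (77.9%) had a log2 fold change above 0, and 242 (35.4%) were higher in both HET libraries. Their median log2 fold change was 0.35, the highest of 20 chromosomes, with the others between -0.30 and 0.17. None of the X genes passed, and 38 had an unadjusted p under 0.05. The share of counts from the chromosome was 1.82% in WT 1 and 1.77% in WT 2, against 2.30% in HET 1 and 2.15% in HET 2. Bex3 at 0.34 and the TCEAL genes at 0.14 and 0.01 were at or under the median of the chromosome, and Bex1, Bex2 and Bex4 were far above it. The X median exceeded that of all genes by 0.31, and by 0.22 to 0.40 under the other scalings, filters, tools and omissions of a library. Xist, the RNA that coats the inactive X, was at 397, 473, 540 and 462 CPM in the order WT 1, WT 2, HET 1, HET 2, and was thus present in all tumours. The part of this chromosome-wide difference in the levels of the 6 genes was not tested.

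**Figure D2:**
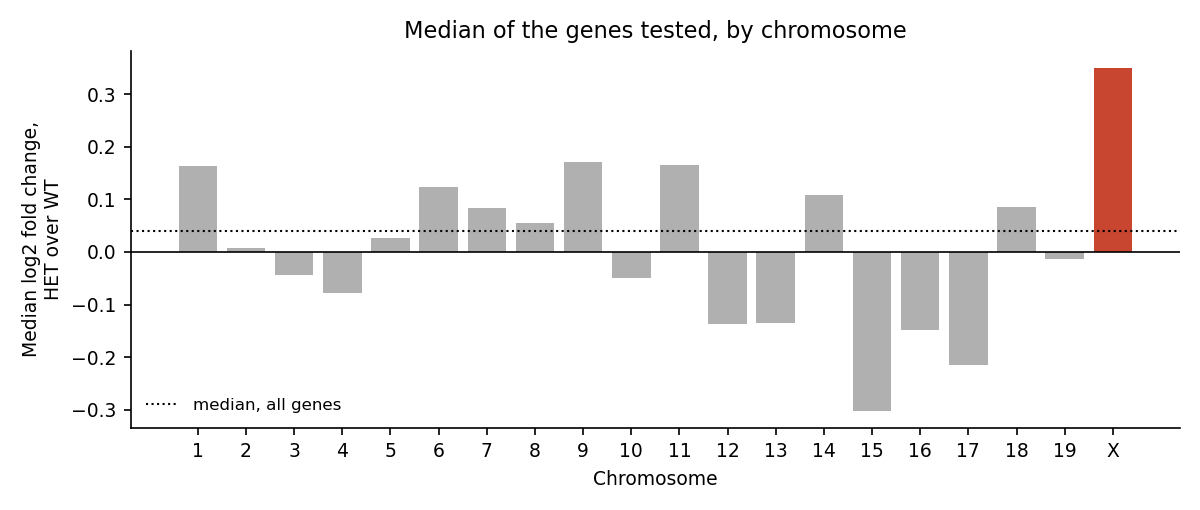
Median log2 fold change, HET over WT, of the genes tested on each chromosome, with the median of all genes as a dotted line. Chromosome X is highest at 0.35 and chromosome 15 lowest at -0.30.

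The 6 genes span 203.69 kb between the first positions of Bex2 and Bex3. Between them lay 5 other annotated genes, 4 with any count and 0 with enough to be tested, among them Tceal5. In the window that reaches 500 kb past the outermost genes there were 47 other genes in the table, 12 with no count and 11 tested. Of these 11, 10 had a log2 fold change above 0 and 4 were higher in both HET libraries, with a median of 0.52 and 0 passing. The share higher in both was 19.6% among all genes tested and 35.4% among those of chromosome X, near that of the window. Gprasp2, which encodes a protein that binds G protein-coupled receptors, was at 2.47 CPM in WT 1 and 1.28 in WT 2, against 5.97 in HET 1 and 14.0 in HET 2. Its groups did not overlap, HET 2 was its highest library as for Bex2 and Bex4, and the log2 fold change was 2.41 ± 0.67, with an edgeR adjusted p of 0.986. Gprasp1, a sorting protein for such receptors, was at 26.3, 19.9, 35.5 and 46.7 CPM, with a log2 fold change of 0.83 ± 0.33. It shares its first position with Armcx5, at 0.09 ± 0.43, so their reads may be shared.

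The remaining neighbours with a mean of at least 1 CPM were closer to 0. Bhlhb9 was at 24.2, 7.98, 23.4 and 28.0 CPM in the same order, low in the library labelled WT 2 alone, at 0.68 ± 0.55. Nxf7, an RNA export factor homologue, was at 0.69 ± 0.73, Arxes2 at 0.51 ± 0.87 and the noncoding BC065397 at 0.52 ± 0.63. Morf4l2, a chromatin protein at 161 to 219 CPM, was at -0.02 ± 0.30, a value that turned positive under upper-quartile scaling (0.07) and without scaling (0.17). High expression in HET was thus not shared by the whole neighbourhood: Tceal8 and Tceal9 lie between Bex4 and Bex3 and separated the genotypes no more than Morf4l2 did.

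**Figure D3:**
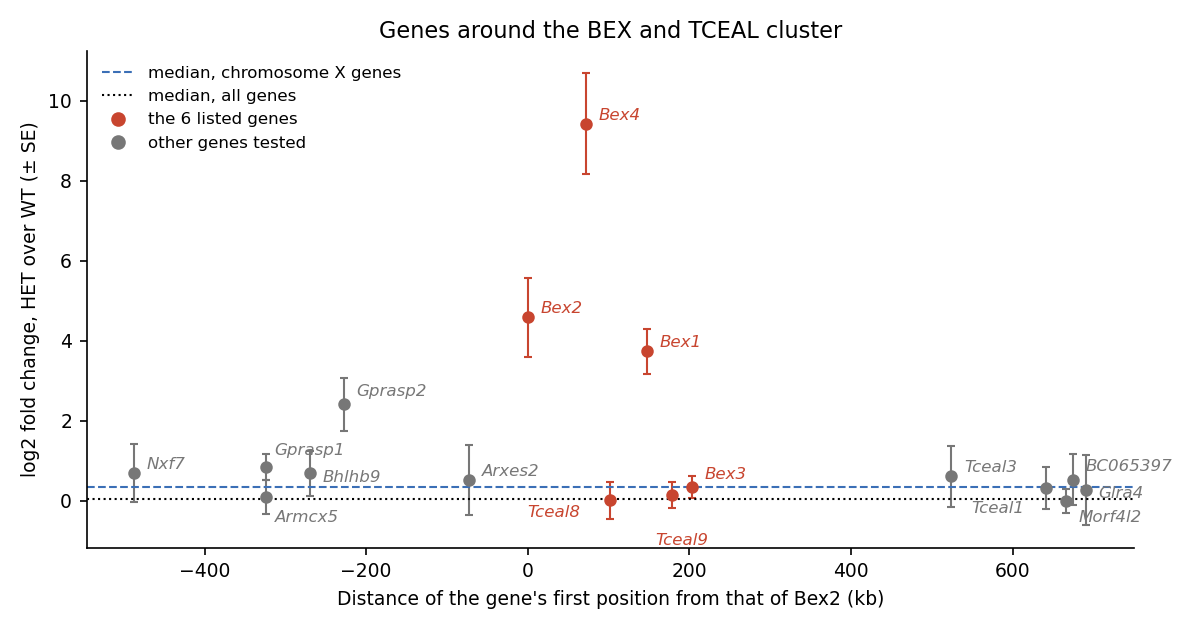
Log2 fold change, HET over WT, with its standard error, of every gene tested in the window around the cluster, against the distance of its first position from that of Bex2 in kb. Bex1, Bex2 and Bex4 are at 3.73, 4.59 and 9.42 (the last is a fit to WT counts of 0), Gprasp2 is at 2.41, and all others are under 1.

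Of the 6 other BEX and TCEAL genes, 2 had enough counts to be tested. Tceal1 was at 3.26 CPM in WT 1 and 5.06 in WT 2, against 5.71 in HET 1 and 4.68 in HET 2, and the groups overlapped (log2 fold change 0.32 ± 0.53). Tceal3 was at 1.19, 4.77, 4.93 and 4.16 CPM, low in WT 1 alone, at 0.60 ± 0.75. Tceal5 had 2, 0, 4 and 4 counts, Tceal6 had 0, 6, 0 and 1, and Tceal7 had 0, 0, 0 and 2. Bex6, the BEX gene off the X chromosome, had none. Tceal3 and Tceal8, which hold the element with the same gap of 7 bases as Bex1 and Bex4, overlapped between genotypes, and Tceal5 and Tceal6, which hold it too, had too few counts to compare.

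The pathway genes around the BEX proteins were described from lists chosen with earlier results known. Of 23 p75NTR and neurotrophin signalling genes other than Bex1 and Bex3, 6 had a log2 fold change above 0 and 17 below, with a median of -0.12 and 0 passing. Sorcs2, a sortilin-family co-receptor of p75NTR, was at 21.1, 48.1, 16.0 and 12.5 CPM in the order WT 1, WT 2, HET 1, HET 2. Both HET libraries were lower, at -1.28 ± 0.47 with an edgeR adjusted p of 0.986. Without the library labelled WT 2 the value was -0.56, and without WT 1 it was -1.76, each with a single WT library left. Ntrk2, the receptor of brain-derived neurotrophic factor, was at 10.6, 10.5, 14.3 and 50.5 CPM (1.62 ± 0.61). HET 2 supplied most of that difference, which was 0.37 without it. Bex1 and Bex3, also on this list, were chosen on this contrast and are described above without a test.

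The related families gave medians of either sign. Of 14 genes of the TFIIS family and its elongation partners, to which the TCEAL proteins are related, 6 were above 0 and 8 below, with a median of -0.13. Its genes of smallest p were Ell3 (-0.61 ± 0.53), Tceanc2 (0.56 ± 0.49) and Ell2 (-0.51 ± 0.49), and each of their groups overlapped except that of Ell3. Of 11 ARMCX, GPRASP and ARXES genes tested, 7 were above 0 and 4 below, with a median of 0.12. In both HET libraries 3 were higher, against 35.4% of chromosome X genes. They were Gprasp2, Gprasp1 and Armcx2, a mitochondrial outer membrane protein gene at 20.7, 19.9, 21.7 and 35.6 CPM. Of 10 genes of X inactivation and escape, 8 were above 0 and 2 below, with a median of 0.19. Its genes of smallest p were Kdm6a, Utp14a and Tsix, at 0.28 ± 0.30, 0.29 ± 0.36 and 0.84 ± 1.05. No gene of any of these lists passed the test.

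BEX genes are abundant in neurons, so neuronal and neuroendocrine markers were set beside them. They summed to 172, 259, 239 and 198 CPM in the order WT 1, WT 2, HET 1, HET 2, so the genotypes overlapped. Of 24 such genes 14 were tested, 10 were above 0 and 4 below, with a median of 0.32 and 2 higher in both HET libraries. Dcx, a microtubule protein of young neurons, was at 1.27, 0.142, 2.34 and 5.57 CPM in the order WT 1, WT 2, HET 1, HET 2 (2.48 ± 1.06). Stmn2, a regulator of microtubules in growing axons, was at 5.01, 3.42, 6.88 and 9.57 CPM (0.96 ± 0.50). Tubb3, a neuronal tubulin, went the other way, at 2.47, 1.28, 0.974 and 0.519 CPM (-1.31 ± 0.83). The order of the libraries for Dcx and Stmn2 was that of Bex4 in HET, and none of the list passed. Insm1, a factor of neuroendocrine cells, was at 0 in the library labelled WT 2 and in HET 1. The part of neuronal or neuroendocrine cells in the BEX levels was not tested.

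Markers of other cell types, some of them targets of the sort, also differed between libraries. Of all genes tested, 19.6% were higher in both HET libraries. T and NK cell markers summed to 18.5, 7.05, 46.2 and 48.6 CPM in the order WT 1, WT 2, HET 1, HET 2, and 5 of the 6 tested were higher in both HET libraries. Endothelial markers summed to 383, 74.6, 341 and 550 CPM, with 6 of 9 higher in both, and Cldn5 at 0 in the library labelled WT 2. Adipocyte markers summed to 47.3, 10.8, 73.9 and 92.2 CPM, with all 3 tested higher in both. Most of each sum was Fabp4, at 42.4, 7.98, 68.9 and 88.0 CPM, named after its values were seen. The untested Adipoq, Cidec and Cfd were not higher in both. Erythroid markers summed to 6.6, 2.07, 6.17 and 16.1 CPM, with 2 of 3 tested higher in both. Leukocyte markers summed to 312, 23.4, 343 and 295 CPM, with 3 of 7 higher in both, and macrophage markers to 826, 42.7, 891 and 570 CPM, with 0 of 9.

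Only for T and NK cell markers and adipocyte markers did the sums of both HET libraries exceed those of both WT libraries. The adipocyte sums rest mainly on Fabp4. Fibroblast markers summed to 7552, 23438, 4547 and 5645 CPM, with 6 of 9 lower in both HET libraries, and pericyte and smooth muscle markers to 585, 843, 613 and 524 CPM. Schwann and glial markers summed to 158, 76.2, 98.4 and 105 CPM, and skeletal muscle markers to 21.3, 13, 16.6 and 13.7 CPM. Of 9 Schwann and glial markers tested, 2 were higher in both HET libraries and 2 lower in both. These were chosen for naming after their values were seen. The former were Cdh19, a cadherin of Schwann cell precursors, with 3, 2, 18 and 15 counts, and the glial filament gene Gfap, with 14, 6, 30 and 20. The latter were S100b, with 12, 30, 3 and 5 counts, and Pmp22, with 464, 568, 455 and 397. Of the 9 tested, 4 had a log2 fold change above 0 and 5 below, with a median of -0.14. Foxd3, a factor of early Schwann cells, was at 0 in the library labelled WT 2, HET 1 and HET 2. The part of any of these cell types in the levels of Bex1, Bex2 and Bex4 was not tested.

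**Figure D4:**
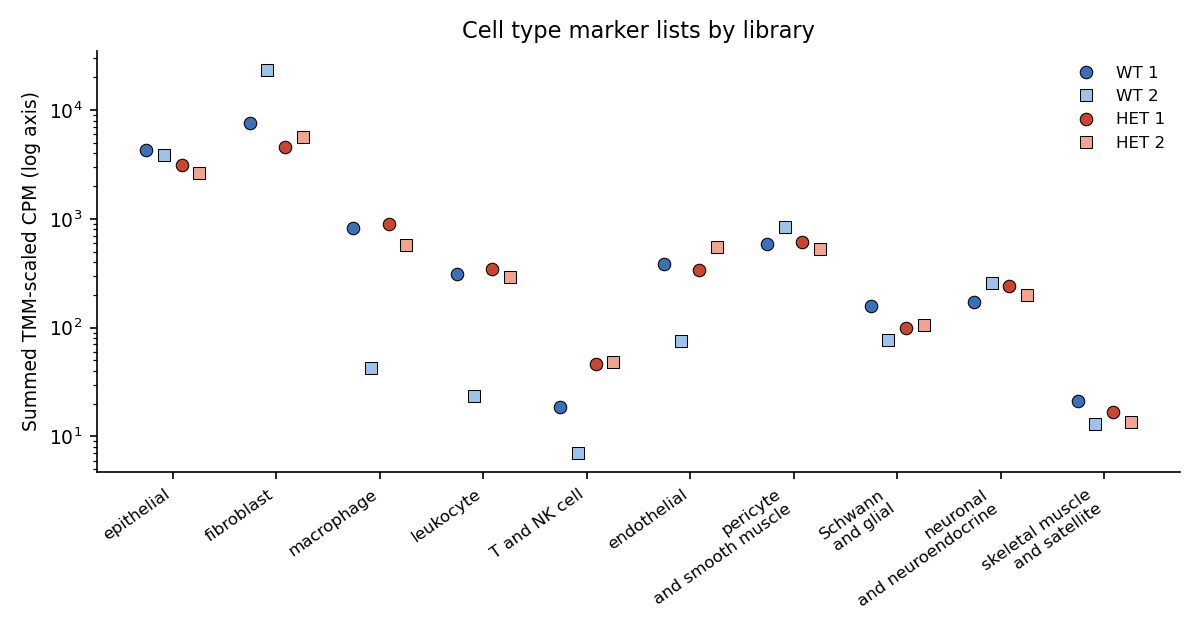
Summed TMM-scaled CPM (log axis) of cell type marker lists in each library, with circles and squares for replicates 1 and 2 of each genotype. The neuronal and neuroendocrine list is included, and the erythroid and adipocyte lists are not drawn. T and NK cell markers are higher in both HET libraries (46.2 and 48.6 against 18.5 and 7.05), while the library labelled WT 2 is lowest in leukocyte, macrophage and endothelial markers and highest in fibroblast markers.

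The genes whose pattern over the 4 libraries was most like that of Bex1 or Bex4 were found among 13031 genes, as those with the smallest root-mean-square difference of log2 CPM after each gene was centred. With 4 libraries, and with Bex1 and Bex4 chosen for this pattern, the ranking is a description. For Bex1 they were Cd3g (difference 0.42), a chain of the T cell receptor complex, the olfactory receptor gene Olfr137 (0.43), the interferon-induced Oas2 (0.61), the immunoglobulin constant region gene Ighg1 (0.63) and Asb18 (0.76). For Bex4 they were Ighg1 (0.83), Olfr137 (1.01), Cd3g (1.10), Bex1 (1.11) and the casein gene Csn3 (1.18). Bex2 differed from Bex4 by only 0.91, nearer than Olfr137, but its mean log2 CPM of 0.38 was below the minimum of 1 set for the genes ranked. Cd3g was at 0.955 CPM in WT 1 and 0.214 in WT 2, against 8.83 in HET 1 and 7.42 in HET 2. Olfr137 was at 1.75, 0.499, 19.1 and 15.1 CPM in the same order. The genes most like Bex1 thus came from chromosomes 9, 17, 5, 12 and 1, none from X. By the same measure, in a ranking that counts Bex1 itself first, Bex2 and Bex4 ranked 60 and 108 for likeness to Bex1. In that ranking Bex3, Tceal8 and Tceal9 were at 2195, 5939 and 3664. None of these genes passed in the filtered edgeR test with every library. Cd3g, Olfr137, Oas2, Ighg1 and Csn3 passed with no low-count filter and in DESeq2. In those runs 324 of 43097 and 134 of 21607 genes passed. As these genes were picked for likeness to genes chosen on this contrast, nothing is read from their passing.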

How the data were processed

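Total RNA of 4 sorted mouse mammary tumour samples was sequenced, 2 per genotype. The authors deposited estimated counts per gene, and per the submitters' processing notes these came from Salmon, with GRCm38.p5 as the build. The values are whole numbers in the table. Salmon's version, the annotation and the strandedness were not given in the sources used here. Of 51826 gene identifiers 51633 matched GENCODE M21, which gave symbols and coordinates, and 0 rows named no gene.

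Genotypes were compared in R 4.3.3 by edgeR 4.0.16 with filterByExpr, TMM scaling and the quasi-likelihood F test, genotype as the only term and Benjamini-Hochberg adjustment over the 21607 genes tested, at a threshold of 0.05. The estimated common biological coefficient of variation was 0.46 and the degrees of freedom were 2 (residual) and 4.08 (prior). The SE printed with ± is the absolute log2 fold change divided by the square root of the F statistic. For Bex4, with counts of 0 in WT, it is no measure of spread. The fit was tested on simulated data. An exact permutation test of 2 against 2 libraries cannot reach the threshold, so none is given. Alternatives were relative log expression, upper-quartile and no scaling, no filter beyond 1 count, a filter of 1 CPM in 2 libraries, DESeq2 1.42.0, voom in limma 3.58.1, summing the counts of Bex1 and Bex2, and leaving out each library. The median of chromosome X genes was added after the data were seen.

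The 6 genes and all lists were chosen with earlier results of these data known. Named besides the 6 are Elf5, the other BEX and TCEAL genes, the 3 genes of smallest p in each list, neighbours within 500 kb with a mean of at least 1 CPM, and the 5 genes most like Bex1 and Bex4 in log2 CPM (prior count 2), leaving out unnamed models, pseudogenes and V, D and J segments of immunoglobulin and T cell receptor genes. Marker lists are given as sums, with single markers named where at 0. Schwann and glial markers higher or lower in both HET libraries are named too, as are Fabp4 and the untested adipocyte markers. Not every listed gene is reported here by name. Promoter windows came from RefSeq (GRCm38.p6) and were aligned with Biopython 1.88.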

Additional observations from a re-analysis of the deposited data

How the results depend on the processing

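Each of the 4 libraries decided some value, and with 2 per genotype, possibly from a single HET animal, the spread between animals is unknown. The number of genes passing, 0 with TMM, was 324 with no filter beyond 1 count and 134 with DESeq2, and 0 to 657 when a library was left out, 657 without WT 1 and 9 without the library labelled WT 2. It was 0 under the other scalings, the 1 CPM filter and voom. Elf5 ranged from -2.16 to 0.76 when a library was left out. The log2 difference of the summed level of the 6 genes, 0.26, ranged from 0.016 (without WT 1) to 0.56 (without the library labelled WT 2). Bex1, Bex2, Bex3 and Bex4 stayed above 0 under every alternative run. Tceal8 was -0.0648 with relative log expression and -0.0648 with DESeq2, -0.11 with no filter, and -0.49 to 0.78 when a library was left out. Morf4l2 was 0.068 with upper-quartile scaling, 0.17 with no scaling, 0.00022 with voom and -0.22 to 0.22 when a library was left out. The same omissions gave -0.10 to 0.44 for Tceal9, -0.070 to 1.92 for Tceal3, -0.13 to 0.18 for Armcx5, -0.72 to 1.10 for Arxes2, -1.16 to 0.11 for Ell2, -0.0016 to 1.08 for Nxf7 and -0.033 to 0.70 for Utp14a. Why these values moved was not tested. Upper-quartile scaling moved the median log2 fold change of all genes from 0.04 to 0.12 and no scaling moved it to 0.22. Counts of 0 to 4 in the WT libraries limit Bex2 and Bex4 most. No paired analysis was possible because the titles give the groups no shared numbers.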
